A study of Caenorhabditis elegans with 12 samples.

Results

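The genes described here encode the cathepsin B-like cysteine proteases CPR-1 to CPR-6 of *Caenorhabditis elegans*. They were found by their WormBase symbols (cpr-1, cpr-2, cpr-3, cpr-4, cpr-5 and cpr-6), and all 6 are among the 17430 genes listed. Their levels were examined in whole worms of the wild-type N2 strain after RNAi labelled as directed at stt-3, and after infection with the *Pseudomonas aeruginosa* strain PA14. The gene stt-3 encodes the catalytic subunit of the oligosaccharyl transferase (OST). The worms were fed stt-3 RNAi or control RNAi bacteria until the L4 stage and then kept for 12 h either on PA14 or on the same RNAi bacteria (*E. coli*). This gave 4 conditions with 3 libraries each, namely labelled stt-3 RNAi on PA14, control RNAi on PA14, labelled stt-3 RNAi on E. coli and control RNAi on E. coli. The labels do not say whether the replicates were separate cultures, so the p values below measure only the spread between these libraries.

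Cathepsin B-like enzymes belong to the papain family. They are made as inactive precursors that enter the ER, where many secretory proteins receive N-linked glycans from the OST, and they are then sorted to lysosomes or secreted. The prodomain is removed in an acidic compartment, and cystatins inhibit the mature enzymes. In *C. elegans* several cpr genes are known from the intestine, where cysteine and aspartic proteases digest bacterial food.

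The deposited values are normalized and rounded to whole numbers. They are not read counts, and the sequencing depth is unknown. Library totals of these values ranged from 5530614 to 8627187, and the upper quartiles lay between 161 and 164. A gene was tested when its value was at least 10 in at least 3 libraries, which 12908 genes met. The test was limma on log2(value + 1) over all 12 libraries, and a gene was called at more than 2-fold with a Benjamini and Hochberg (BH)-adjusted p under 0.05. In brackets, SE is the standard error, and p is from limma or, for tests against the 2-fold threshold, from its treat function. All log2 fold changes below are on that scale, on which low genes appear to change less than they did. The value of stt-3 itself was not lower in the knockdown libraries. It was 469 to 551 in the labelled libraries on PA14 against 367 to 434 in control RNAi on PA14, and 461 to 488 in the labelled libraries on E. coli against 398 to 434 in control RNAi on E. coli. The libraries are therefore called "labelled stt-3 RNAi". Another OST gene, ostd-1, was lower in the labelled libraries on both bacteria. On PA14 it was 104 ± 8.72 in the labelled libraries and 763 ± 92.9 in control RNAi (SD, n = 3 each). On E. coli it was 126 ± 11.6 in the labelled libraries and 642 ± 21.8 in control RNAi (SD, n = 3 each). However, ostd-1 overlaps tom-1 on the other strand.

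Of the members, 5 lie on chromosome V of WBcel235 and 1 lies on X. On V, cpr-5 (WBGene00000785) spans 1132598 to 1134036 on the minus strand. The gene cpr-4 (WBGene00000784) spans 6614674 to 6615851 on the plus strand, and cpr-1 (WBGene00000781) spans 11975551 to 11976756 on the plus strand. On the minus strand of V, cpr-3 (WBGene00000783) spans 15296834 to 15298700 and cpr-2 (WBGene00000782) spans 16532936 to 16534100. The gene on X is cpr-6 (WBGene00000786), from 6607207 to 6609045 on the plus strand, with 8 exons where the other members have 2 to 4. The annotation places no other protein-coding gene over any of the 6 members. How reads shared between related copies were divided is not given in the sources used here.

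The order of the members changed with the condition. Levels of different genes were compared as values per kb of exon. The most abundant member was cpr-6 in all 4 conditions, with means of 3768 per kb in labelled stt-3 RNAi on PA14, 6479 in control RNAi on PA14, 3380 in labelled stt-3 RNAi on E. coli and 5117 in control RNAi on E. coli. On PA14 the order in the labelled libraries was cpr-6, cpr-3, cpr-1, cpr-4, cpr-5 and cpr-2, where the ranges of cpr-1 and cpr-4 overlapped. In control RNAi on PA14 it was cpr-6, cpr-4, cpr-1, cpr-3, cpr-5 and cpr-2, and no neighbours overlapped. On E. coli the labelled libraries had the order cpr-6, cpr-1, cpr-5, cpr-4, cpr-3 and cpr-2, in which each neighbour down to cpr-4 overlapped the next. The control RNAi libraries on E. coli had the order cpr-6, cpr-4, cpr-5, cpr-1, cpr-3 and cpr-2, with overlap between cpr-6 and cpr-4 and between cpr-4 and cpr-5.

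**Figure D1:**
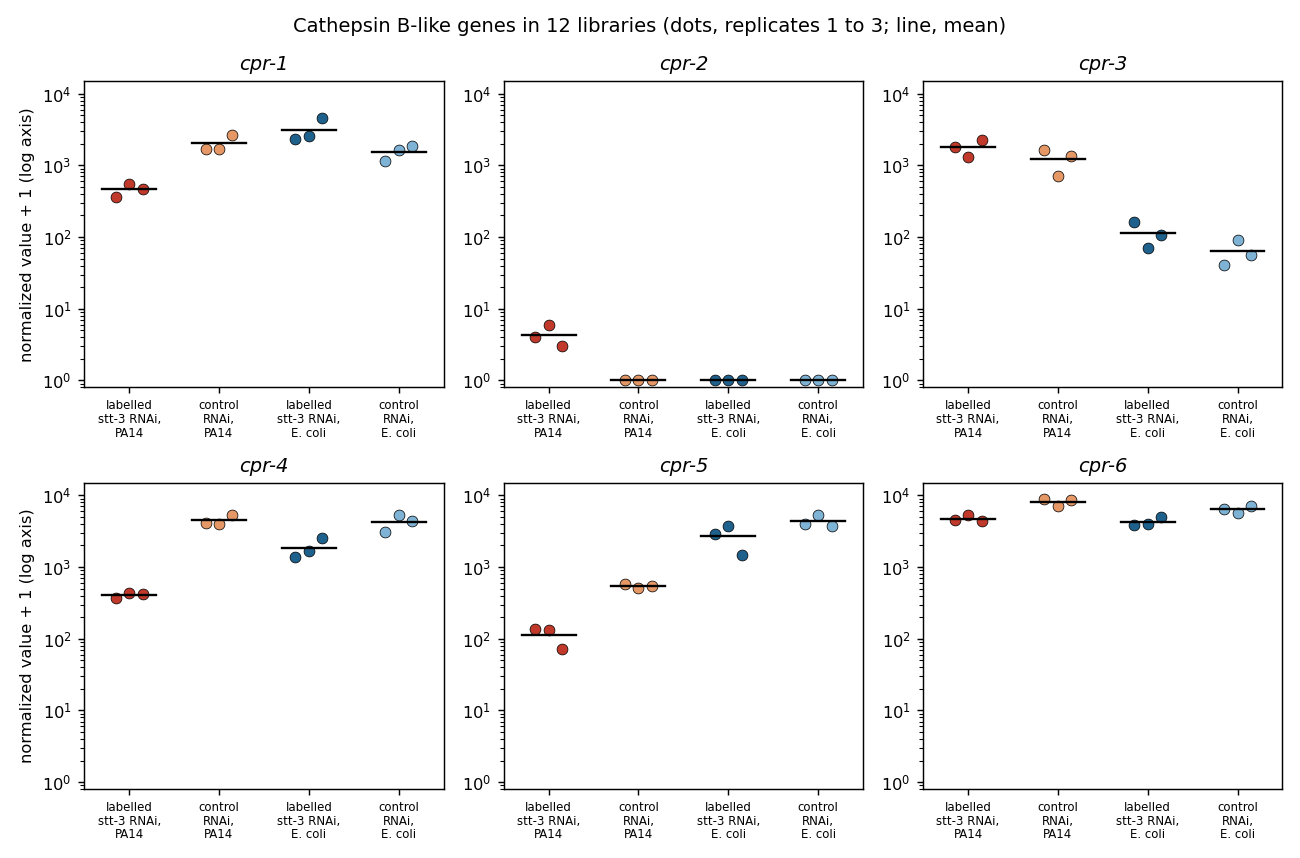
Normalized value + 1 (log axis) of cpr-1 to cpr-6 in each library, with dots for replicates 1 to 3 and a line for the mean of labelled stt-3 RNAi on PA14, control RNAi on PA14, labelled stt-3 RNAi on E. coli and control RNAi on E. coli. The values of cpr-3 are high in all 6 PA14 libraries, those of cpr-5 are low there, and those of cpr-1 and cpr-4 are lowest in the 3 labelled libraries on PA14.

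The level of cpr-2 was at the bottom of the scale. It is listed at 0 in 9 libraries and had values of 3, 5 and 2 in labelled stt-3 RNAi on PA14. It did not pass the filter on low values, so that 5 of the 6 members were tested and no fold change is given for cpr-2. With no filter it was called higher in the labelled libraries on PA14, both against control RNAi on PA14 and against labelled stt-3 RNAi on E. coli. The difference between the PA14 responses was called too. These calls cannot show a rise, because cpr-2 enters that fit only through the condition where it is above 0, at values of 2 to 5.

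It was first asked how PA14 changed these genes in control RNAi. Here cpr-3 rose, cpr-5 fell, and cpr-1, cpr-4 and cpr-6 were not called. Of the 5 tested members 1 was called higher and 1 lower, against 10.7% of all tested genes called higher and 15.9% called lower (26.6% in all). The median log2 fold change of the 5 members was 0.34, against 0.04 for all genes tested. The values of cpr-3 were 1660, 701 and 1338 on PA14, against 40, 91 and 55 on E. coli. All 3 PA14 libraries lay far above the E. coli libraries, and the log2 fold change was 4.28 (SE = 0.40, limma adjusted p = 4.86e-05), that is, 19.5-fold. For cpr-5 the values were 586, 506 and 546 on PA14, against 3980, 5347 and 3757 on E. coli. The groups were again fully apart, with a log2 fold change of -2.98 (SE = 0.33, limma adjusted p = 6.18e-05), which is 7.89-fold lower on PA14.

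The other tested members were not called by PA14 in control RNAi. The gut protease gene cpr-1 had values of 1688, 1714 and 2685 on PA14 and 1165, 1632 and 1855 on E. coli, with overlap between the groups. Its log2 fold change was 0.38, with a 95% interval of -0.26 to 1.02 that takes in a 2-fold rise (limma adjusted p = 0.294). For cpr-4, whose product is known as a secreted protease in the response to irradiation, the values were 4141, 3941 and 5306 on PA14 and 3125, 5300 and 4414 on E. coli. These ranges overlapped almost completely, and the 95% interval of the log2 fold change was -0.44 to 0.60 (limma adjusted p = 0.797). The values of cpr-6 were 8779, 7180 and 8531 on PA14 and 5697 to 7176 on E. coli. The highest E. coli library was just below the lowest PA14 library, and the log2 fold change of 0.34 was well under 2-fold (limma adjusted p = 0.0497).

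In the labelled stt-3 RNAi libraries the response to PA14 took in more members, with cpr-1, cpr-4 and cpr-5 lower and cpr-3 higher. This is 1 of 5 tested members called higher and 3 called lower, against 8.3% and 14% of all tested genes (22.3% in all). The members' median log2 fold change was -2.15 (all genes tested, 0.07). The values of cpr-1 were 356, 553 and 471 on PA14, against 2323, 2548 and 4550 on E. coli. Every PA14 library was below every E. coli library, and the log2 fold change was -2.72 (SE = 0.29, limma adjusted p = 0.000118), a 6.61-fold decrease. The values of cpr-4 were 371, 430 and 421 on PA14, against 1384, 1649 and 2564 on E. coli. They too were fully apart, and the log2 fold change was -2.15 (SE = 0.24, limma adjusted p = 0.000123), or 4.42-fold lower. The largest decrease among the members was that of cpr-5, with values of 136, 131 and 72 on PA14 and 2879, 3783 and 1464 on E. coli. Its log2 fold change was -4.52 (SE = 0.33, limma adjusted p = 4.14e-05), or 23.0-fold lower, and by p value it ranked 10 of the 5677 genes that were lower on PA14.

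The rise of cpr-3 was also present in the labelled libraries. Its values were 1808, 1310 and 2243 on PA14, against 160, 70 and 107 on E. coli, and the lowest PA14 library was above the highest E. coli library. The log2 fold change was 4.02 (SE = 0.40, limma adjusted p = 9.84e-05), or 16.3-fold. For cpr-6 the values were 4532, 5343 and 4367 on PA14 and 3857, 3990 and 4931 on E. coli. These overlapped, and the 95% interval of its log2 fold change was -0.13 to 0.45 (limma adjusted p = 0.358).

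Whether PA14 changed these genes differently between the RNAi groups was tested as the difference of the PA14 changes, labelled stt-3 RNAi minus control RNAi. The difference was called for cpr-1 and cpr-4, which is 2 of 5 tested members lower, against 1.18% of all tested genes (0.232% were called higher and 1.41% either way). It was below 0 for all 5 members, with a median of -1.54 (all genes tested, 0.05). For cpr-1 the difference was -3.1 on the log2 scale (SE = 0.41, limma adjusted p = 0.00477). PA14 libraries of cpr-1 were thus below their E. coli libraries in the labelled group, whereas in control RNAi the ranges overlapped. For cpr-4 the difference was -2.23 (SE = 0.33, limma adjusted p = 0.00847). The difference of cpr-5 was -1.54 (95% interval -2.56 to -0.52) and did not pass the adjustment (limma adjusted p = 0.151). This rested on 1 library, since without replicate 3 of labelled stt-3 RNAi on E. coli the difference of cpr-5 was -1.93 and was called (limma adjusted p = 0.0261; range over the alternatives 0.0261 to 1.0). For cpr-3 the 95% interval of the difference was -1.51 to 0.99 and for cpr-6 it was -0.59 to 0.23 (limma adjusted p = 0.928 and 0.820). Both calls of a difference were lost in the test against 2-fold (limma treat adjusted p = 0.104 for cpr-1 and 0.444 for cpr-4; ranges over the alternatives 0.000769 to 0.104 and 0.00257 to 0.444).

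**Figure D2:**
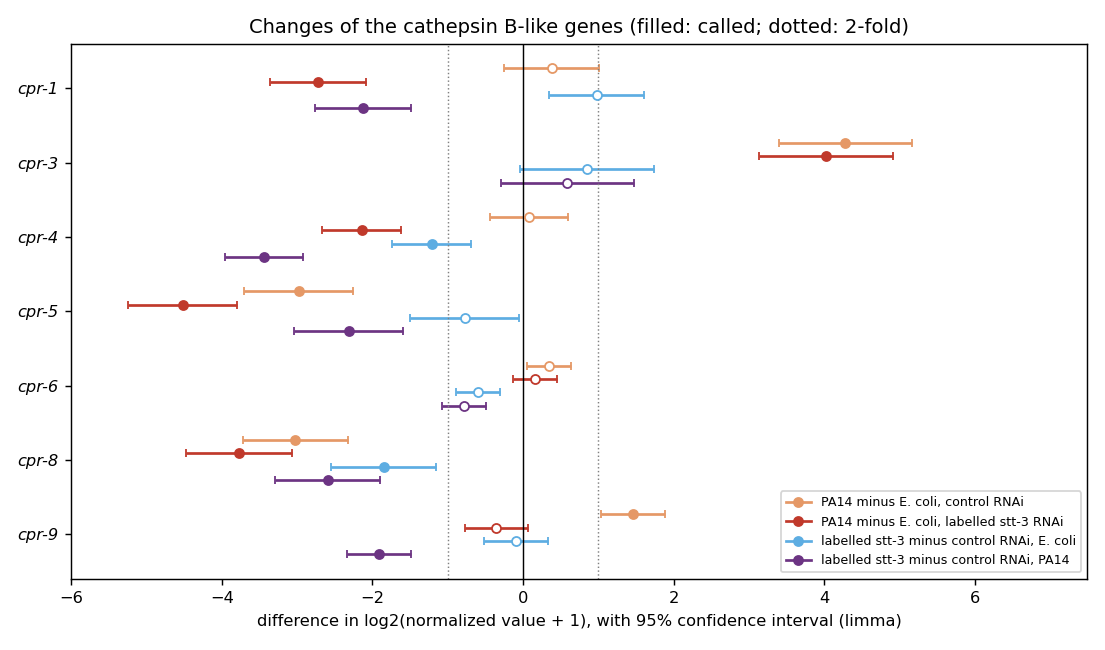
Log2 fold changes (horizontal axis, log2 of normalized value + 1) of 7 cathepsin B-like genes with 95% confidence intervals from limma in the 4 comparisons, with filled dots for called genes and dotted lines at 2-fold. The labelled-minus-control change on PA14 is -3.44 for cpr-4 and -2.13 for cpr-1, while cpr-3 is above 2-fold only in the 2 PA14 comparisons.

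On E. coli, where the worms were not infected, cpr-4 was lower in labelled stt-3 RNAi. It was the 1 tested member called lower, against 1.23% of all tested genes (1.98% were called higher and 3.21% either way), and the members' median log2 fold change was -0.60 (all genes tested, 0.02). The values of cpr-4 were 1384, 1649 and 2564 in the labelled libraries, against 3125, 5300 and 4414 in control RNAi. The groups did not overlap, and the log2 fold change was -1.21 (SE = 0.24, limma adjusted p = 0.0129), or 2.32-fold lower. This call was narrow. It was lost without replicate 1 of labelled stt-3 RNAi on E. coli (limma adjusted p = 0.0506), when only the compared groups were fitted (limma adjusted p = 0.113) and in the test against 2-fold (limma treat adjusted p = 1.0; range over the alternatives 0.00284 to 1.0).

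The change of cpr-1 on E. coli ran the other way. Its values were 2323, 2548 and 4550 in the labelled libraries and 1165, 1632 and 1855 in control RNAi, so that the groups did not overlap. The log2 fold change was 0.98, with a 95% interval of 0.34 to 1.61, and it was not called (limma adjusted p = 0.0745). Replicate 3 of labelled stt-3 RNAi on E. coli was the highest for cpr-1 and cpr-4 and the lowest for cpr-5. The values of cpr-5 were 2879, 3783 and 1464 in the labelled libraries and 3980, 5347 and 3757 in control RNAi, which overlapped by 1 library (log2 fold change -0.78, limma adjusted p = 0.210). For cpr-6 they were 3857, 3990 and 4931 in the labelled libraries and 6470, 5697 and 7176 in control RNAi. These groups were fully apart at a log2 fold change of -0.60 (SE = 0.13, limma adjusted p = 0.0229), a small difference that stayed under 2-fold. The log2 fold change of cpr-3 was 0.85 with a 95% interval of -0.04 to 1.73 (limma adjusted p = 0.268).

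On PA14, cpr-1, cpr-4 and cpr-5 were lower in labelled stt-3 RNAi. These are 3 of 5 tested members called lower, against 3.33% of all tested genes (1.97% were called higher and 5.3% either way). The members' median log2 fold change was -2.13 (all genes tested, 0.05). The values of cpr-4 were 371, 430 and 421 in the labelled libraries, against 4141, 3941 and 5306 in control RNAi. No library of either group came near the other group, with a log2 fold change of -3.44 (SE = 0.24, limma adjusted p = 7.73e-06), or 10.9-fold lower. By p value cpr-4 ranked 29 among the 5421 genes with lower labelled than control values on PA14. The values of cpr-1 were 356, 553 and 471 in the labelled libraries, against 1688, 1714 and 2685 in control RNAi. The log2 fold change was -2.13 (SE = 0.29, limma adjusted p = 0.000812), or 4.37-fold lower, and the groups did not overlap. The values of cpr-5, already low on PA14, were 136, 131 and 72 in the labelled libraries and 586, 506 and 546 in control RNAi. The log2 fold change was -2.32 (SE = 0.33, limma adjusted p = 0.00110), or 4.98-fold lower.

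Also on PA14, cpr-6 had values of 4532, 5343 and 4367 in the labelled libraries and 8779, 7180 and 8531 in control RNAi. The groups were fully apart, but the log2 fold change of -0.78 was under 2-fold (SE = 0.13, limma adjusted p = 0.00333). The values of cpr-3 overlapped, with 1808, 1310 and 2243 in the labelled libraries and 1660, 701 and 1338 in control RNAi (log2 fold change 0.59, 95% interval -0.30 to 1.48, limma adjusted p = 0.447). In the test against 2-fold the call of cpr-4 was kept, and those of cpr-1 and cpr-5 were not (limma treat adjusted p = 0.0848 and 0.0749; ranges over the alternatives 8.51e-05 to 0.0848 and 0.000146 to 0.0749). The 4 comparisons between conditions share libraries, so their results are not independent of each other.

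The summed level of the 6 genes, in values per kb, was 5692 to 6205 in labelled stt-3 RNAi on PA14 and 11711 to 15392 in control RNAi on PA14. On E. coli it was 8948 to 11698 in the labelled libraries and 12316 to 15234 in control RNAi. The labelled libraries on PA14 were thus lowest, and on either bacterium the labelled libraries lay below control RNAi. As a share of all values in a library, the summed values of the 6 genes were 0.121% to 0.141% in labelled stt-3 RNAi on PA14 and 0.221% to 0.286% in control RNAi on PA14, and 0.146% to 0.224% in the labelled and 0.187% to 0.226% in the control libraries on E. coli. The share of cpr-3 in that sum was 15.4% to 27.4% in labelled stt-3 RNAi on PA14 and 4.37% to 8.72% in control RNAi on PA14. In the E. coli libraries it was 0.502% to 1.31% in the labelled group and 0.237% to 0.436% in control RNAi. The share of cpr-5 was 1.0% to 1.98% in the labelled libraries on PA14 and 2.94% to 3.59% in control RNAi on PA14. On E. coli it was 10.4% to 30.8% in the labelled libraries and 21.5% to 29.1% in control RNAi. These sums and shares are given as a description, with no test.

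**Figure D3:**
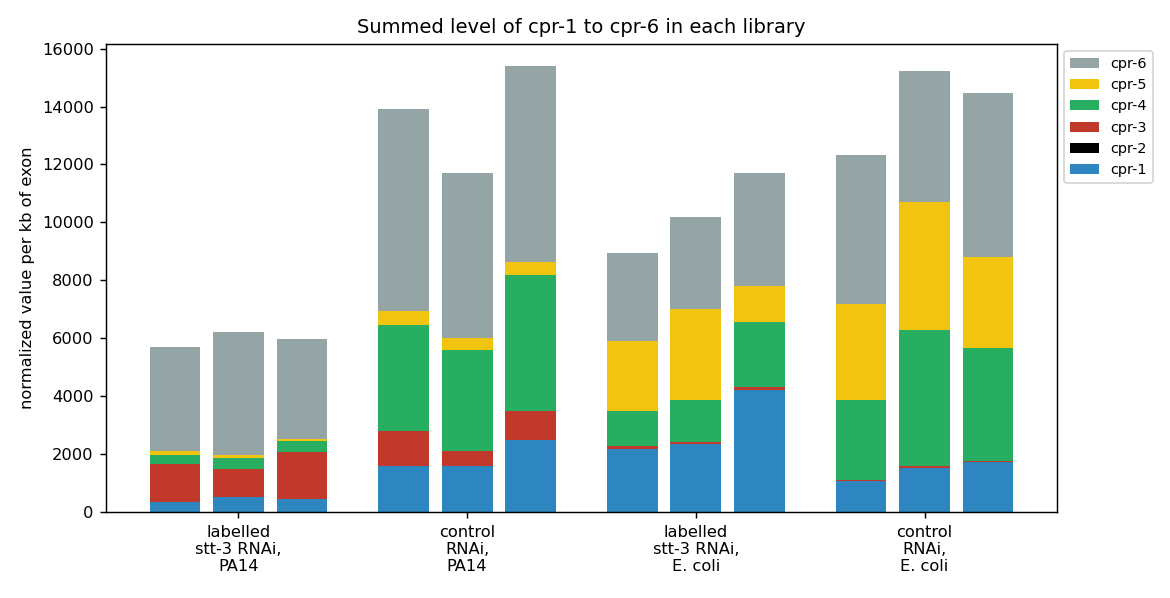
Normalized value per kb of exon (vertical axis) of cpr-1 to cpr-6 stacked in each of the 12 libraries, in the order labelled stt-3 RNAi on PA14, control RNAi on PA14, labelled stt-3 RNAi on E. coli and control RNAi on E. coli. The stacks of labelled stt-3 RNAi on PA14 reach 5692 to 6205, against 11711 to 15392 in control RNAi on PA14, and hold little cpr-4 and cpr-5.

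The cathepsin B-like group has 5 further listed genes, namely cpr-8, cpr-9, F32H5.1, W07B8.4 and Y65B4A.2. The gene cpr-9 (WBGene00010204, chromosome V from 12003053 to 12004584) lies 26296 bp downstream of cpr-1. It had values of 3667, 4096 and 4270 in labelled stt-3 RNAi on PA14 and 17226, 10892 and 18192 in control RNAi on PA14. On E. coli its values were 6364, 4433 and 4747 in the labelled libraries and 5107, 5435 and 5886 in control RNAi. Every library of control RNAi on PA14 lay above all libraries of the other conditions, where cpr-9 was also well expressed. On PA14, cpr-9 was lower in the labelled libraries than in control RNAi (log2 fold change -1.91, limma adjusted p = 0.000107). By PA14 it rose in control RNAi (log2 fold change 1.46, limma adjusted p = 0.000122), while in the labelled libraries the log2 fold change was -0.35 (limma adjusted p = 0.159). The difference of cpr-9 was -1.82 (limma adjusted p = 0.00842), in the same direction as those of cpr-1 and cpr-4. In the test against 2-fold its PA14 change in control RNAi and its difference were both lost (limma treat adjusted p = 0.103 and 0.816; ranges over the alternatives 5.85e-05 to 0.103 and 0.00151 to 0.816).

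The gene cpr-8 (WBGene00021070, chromosome V from 1134602 to 1139182, plus strand) is the next gene to cpr-5, with the 5′ ends of both genes facing each other across 565 bp. On the other side of cpr-5, 667 bp away, lies W07B8.4 (chromosome V from 1130112 to 1131930, minus strand). The values of cpr-8 were 4, 6 and 2 in labelled stt-3 RNAi on PA14, 31, 25 and 27 in control RNAi on PA14, 44, 91 and 64 in labelled stt-3 RNAi on E. coli and 216, 283 and 204 in control RNAi on E. coli. The 4 ranges did not overlap, and the order of the conditions was that of cpr-5. By PA14, cpr-8 fell in the labelled libraries (log2 fold change -3.77, limma adjusted p = 6.95e-05) and in control RNAi (log2 fold change -3.03, limma adjusted p = 5.59e-05). It was lower in the labelled libraries than in control RNAi both on PA14 (log2 fold change -2.60, limma adjusted p = 0.000393) and on E. coli (log2 fold change -1.85, limma adjusted p = 0.00720). The labelled values on PA14 are near the bottom of the scale, so the sizes of these changes are uncertain. Over the alternatives the change between RNAi groups on PA14 ranged from -2.88 to -1.88. The fall by PA14 in the labelled libraries ranged from -4.06 to -2.96. Over the 12 libraries the log2 values of cpr-5 and cpr-8 had a Pearson r of 0.966. W07B8.4 did not pass the filter, with values of 0 to 21 in all libraries. F32H5.1 had values of 221, 201 and 188 in labelled stt-3 RNAi on PA14 and 414, 304 and 359 in control RNAi on PA14, a log2 fold change of -0.81 that stayed under 2-fold (limma adjusted p = 0.00293). Y65B4A.2 had values of 5 to 12 in all libraries and was not called in any of the 5 tests (the lowest limma adjusted p was 0.475). F32H5.1 and Y65B4A.2 overlap coding genes on the other strand, and strand use in the counting is not given.

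The cystatins, which inhibit cysteine proteases, had higher values on PA14 in both RNAi groups. The values of cpi-1 were 6886, 6422 and 5013 in labelled stt-3 RNAi on PA14, 4313, 2860 and 4236 in control RNAi on PA14, 1876, 1874 and 1888 in labelled stt-3 RNAi on E. coli and 2554, 2758 and 2239 in control RNAi on E. coli. PA14 raised cpi-1 in the labelled libraries (log2 fold change 1.69, limma adjusted p = 9.71e-05), and in control RNAi its log2 fold change was 0.58 (limma adjusted p = 0.0128), under 2-fold. The difference of these changes was 1.11 (limma adjusted p = 0.0432). That call was lost under 14 of 21 alternatives, which were added after the data were seen, among them leaving out any single library except replicate 3 of labelled stt-3 RNAi on PA14 (range over the alternatives 0.00765 to 1.0). For cpi-2 the values were 954 to 1009 in the labelled libraries on PA14 and 837 to 983 in control RNAi on PA14, against 568 to 683 in labelled stt-3 RNAi on E. coli and 538 to 566 in control RNAi on E. coli. Its PA14 changes of 0.64 in the labelled libraries and 0.69 in control RNAi were both under 2-fold (limma adjusted p = 0.000207 and 8.79e-05), and cpi-2 overlaps coding genes on the other strand.

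Other papain-family proteases gave 3 of 7 tested genes called lower in the labelled libraries on PA14 (3.33% of all tested genes), with a median log2 fold change of -0.79. Cathepsin L (cpl-1) had values of 2326 to 2679 in the labelled libraries and 6157 to 6744 in control RNAi on PA14, and its log2 fold change was -1.34 (limma adjusted p = 6.16e-06). Cathepsin Z (cpz-1) was lower in the labelled libraries on PA14 (log2 fold change -1.25, limma adjusted p = 5.41e-05) and on E. coli (log2 fold change -1.14, limma adjusted p = 0.000389), and both calls were lost in the test against 2-fold. The third gene, Y40H7A.10, was singled out after its values were seen and had a log2 fold change of -3.60 on PA14. By PA14, 1 of the 7 genes was called higher in control RNAi (10.7% of all tested genes), and 2 were called lower in the labelled libraries (14% of all tested genes), of which cpl-1 had a log2 fold change of -1.40.

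Among the aspartic proteases, which work in the same compartments, 10 of 11 tested genes were called lower in the labelled libraries on PA14 (3.33% of all tested genes), with a median log2 fold change of -2.12. The most abundant of them were asp-1, asp-6, asp-3, asp-5 and asp-14, with log2 fold changes of -2.49, -2.20, -1.26, -2.96 and -1.31. In control RNAi PA14 raised 6 of these 11 genes and lowered 2 (10.7% and 15.9% of all tested genes). In the labelled libraries it raised 2 and lowered 3 (8.3% and 14% of all tested genes), and on E. coli labelled stt-3 RNAi had 1 called higher and 2 called lower (1.98% and 1.23% of all tested genes). Of other lysosomal peptidases, 4 of 12 were called lower in the labelled libraries on PA14 (3.33% of all tested genes, as for the next lists), among them ctsa-1.2 (log2 fold change -1.81). The asparaginyl endopeptidase gene lgmn-1 rose on PA14 in the labelled libraries (log2 fold change 2.01) and in control RNAi (3.37), and on E. coli it was higher in the labelled libraries (1.74). Of other lysosomal enzymes and membrane proteins, 7 of 23 were called lower in the labelled libraries on PA14, with a median of -0.21. They include the acid ceramidase gene asah-1, with a log2 fold change of -3.48. By PA14, 8 of these 23 genes rose and 1 fell in control RNAi (10.7% and 15.9% of all tested genes). In the labelled libraries 2 rose and 2 fell, near the 8.3% and 14% of all tested genes. Subunits of the V-ATPase, the pump that acidifies lysosomes, had a median of -0.55 there (all genes tested, 0.05). Of these 20 genes, 1 was called lower, a count near the 3.33% of all tested genes. That subunit is the intestinal vha-6, with a log2 fold change of -1.75. Most of the list was nevertheless lower by less than 2-fold, with 17 of the 20 lower at a limma p under 0.05 before adjustment. Of 5 transcription factors of the intestine and lysosome (elt-2, elt-7, hlh-30, pqm-1 and daf-16), the log2 fold changes in the labelled libraries on PA14 were between -0.37 and 0.12, with a median of -0.18.

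**Figure D4:**
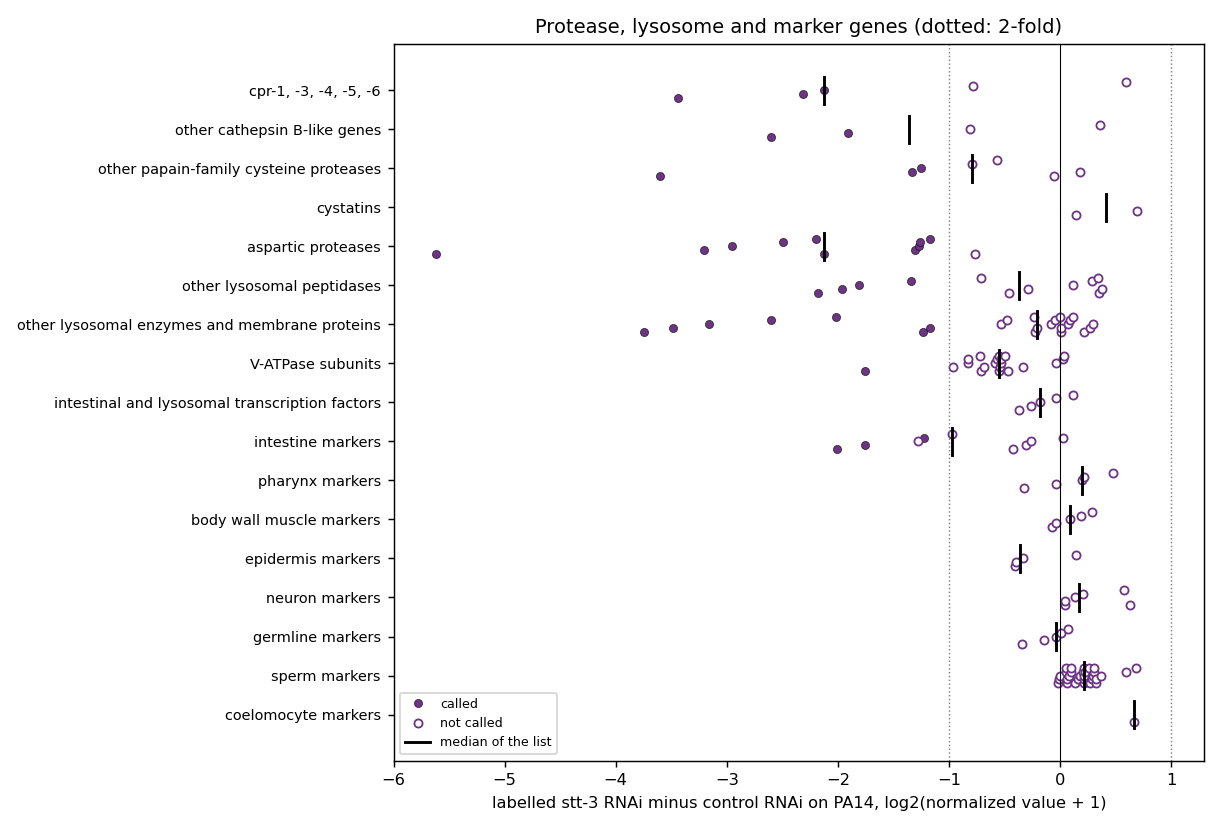
Log2 fold change on PA14 between labelled stt-3 RNAi and control RNAi, the control subtracted (horizontal axis, log2 of normalized value + 1) for each tested gene of the protease, lysosome and tissue marker lists, with filled dots for called genes, open dots for genes not called and a bar for the list's median. The tested cpr members have a median of -2.13 and the aspartic proteases one of -2.12, while the intestine markers have a median of -0.97 and the sperm markers one of 0.21.

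Because RNA was taken from whole worms, fewer cells of a type and less RNA per cell cannot be told apart. Some markers of the intestine were also lower in labelled stt-3 RNAi on PA14. The summed value of 9 intestine markers was 2864 to 3731 in labelled stt-3 RNAi on PA14 and 5875 to 9659 in control RNAi on PA14. On E. coli it was 2947 to 5899 in the labelled libraries and 5294 to 7719 in control RNAi. Most of this sum was act-5, an intestinal actin gene that was not called on PA14 (log2 fold change -1.28, limma adjusted p = 0.0550). None of the 9 was at 0 in all libraries. On PA14, 3 of the 9 were called lower in the labelled libraries and only ges-1 had a positive change, the median being -0.97. On E. coli 0 of the 9 were called between the RNAi groups by limma (1 at a limma p under 0.05 before adjustment). On PA14, between labelled stt-3 RNAi and control RNAi, the intestinal filament gene ifb-2 had a log2 fold change of -2.01. In the same comparison the esterase gene ges-1 had one of 0.03, and the GATA factor gene elt-2 had one of -0.26. For neurons, body wall muscle and germline the medians in this comparison were 0.17, 0.09 and -0.04. The part of the intestine markers in the lower cpr levels was not tested.

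Markers of sperm moved with PA14. The summed value of 30 msp genes was 7396 to 11292 in labelled stt-3 RNAi on PA14 and 4700 to 11244 in control RNAi on PA14, against 76864 to 133292 in the labelled libraries and 68281 to 168502 in control RNAi on E. coli. Body wall muscle markers, 5 in all, also had lower sums on PA14 (2341 to 2799 in the labelled libraries and 1933 to 3254 in control RNAi) than on E. coli (5885 to 9976 in the labelled libraries and 6414 to 11035 in control RNAi). Among 5 epidermis markers, 4 of them tested, 2 fell and 1 rose by PA14 in either RNAi group. Their sums on PA14 were 220 to 270 in the labelled libraries and 201 to 279 in control RNAi. On E. coli they were 420 to 2048 in the labelled libraries, a wide spread, and 1401 to 1914 in control RNAi. The part of these shifts in the PA14 changes of the cpr genes was not tested. The sums of neuron markers were 1926 to 2091 in labelled stt-3 RNAi on PA14, 1649 to 1969 in control RNAi on PA14, 1580 to 1656 in labelled stt-3 RNAi on E. coli and 1355 to 1450 in control RNAi on E. coli.

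The members did not move as one group. Over the 12 libraries, the Pearson r of log2 values was 0.761 between cpr-1 and cpr-4, 0.697 between cpr-1 and cpr-5 and 0.689 between cpr-4 and cpr-5. It was -0.919 between cpr-3 and cpr-5, -0.546 between cpr-3 and cpr-1 and -0.465 between cpr-3 and cpr-4. For cpr-6 it was 0.676 with cpr-4, 0.211 with cpr-1, 0.156 with cpr-3 and 0.0390 with cpr-5. These values are descriptions over libraries that fall into 4 conditions, so that they carry the differences between conditions.

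The genes most like each member over the 12 libraries were sought among 7650 other genes whose mean value was 50 or more. For cpr-3 these were F08G2.5 (r = 0.997) and tag-120 (r = 0.995), and F08G2.5 had means of 1719 in labelled stt-3 RNAi on PA14, 1025 in control RNAi on PA14, 43.0 in labelled stt-3 RNAi on E. coli and 25.3 in control RNAi on E. coli. For cpr-4 they were nspg-8 (r = 0.983) and the lysozyme gene lys-4 (r = 0.979). The means of nspg-8 were 88.3, 393, 212 and 409 in the same order of conditions, so that the labelled libraries on PA14 were lowest as for cpr-4. For cpr-5 they were fipr-13 (r = 0.989) and the astacin-like metalloprotease gene nas-20 (r = 0.985). The match was weaker for cpr-1, with the C-type lectin gene clec-49 (r = 0.941) and the lipase gene lipl-5 (r = 0.890). For cpr-6 they were pud-4 (r = 0.978) and pud-3 (r = 0.956), which changed far more, since the log2 fold change on PA14 in the labelled libraries against control RNAi was -4.92 for pud-4, -5.16 for pud-3 and -0.78 for cpr-6.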

How the data were processed

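RNA from whole worms was sequenced in 12 libraries. The authors aligned the reads to WBcel235 with HISAT2 2.0.5, quantified genes with StringTie 1.3.3b and Ballgown, applied upper-quartile normalization and RUVSeq, and deposited the rounded values, which are a score and not counts although the column is headed count. How strand was used in counting is not given in the sources used here. Of the 17430 genes, 16626 had a symbol. Coordinates and exon lengths came from the WBcel235 annotation. No sequence was used here.

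Genes that reached 10 in at least 3 libraries were fitted on log2(value + 1) with limma 3.58.1 (R 4.3.3), a mean for each condition and a trend of variance with level. P values were adjusted by BH over all 12908 tested genes. The code was tested on simulated data. The members and gene lists were chosen with earlier results of these data known. Of the lists, genes were named when called in at least 1 comparison of conditions with a mean of at least 500 (at most 5 a list), besides all cathepsin B-like genes and cystatins. The transcription factors, act-5, ges-1 and Y40H7A.10 were named outside this rule, after their values were seen. For likeness, the top 2 genes by Pearson r were named. No libraries were identical.

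Replicate numbers were shared between conditions. Deviations from the condition means correlated across genes at 0.534, 0.255 and 0.394 between equal numbers of labelled stt-3 RNAi and control RNAi on PA14. The main fit had no replicate term, and these numbers were taken as paired only in the alternative with a replicate block. In every other pair of conditions at least 1 of the 3 correlations was under 0.1. The labelled and control RNAi libraries on E. coli gave 0.019, 0.369 and 0.457. Each control RNAi library on PA14 matched the equal number best in either E. coli group, at 0.056 to 0.197. Each labelled library on PA14 did so with control RNAi on PA14. In each remaining pair at least 1 library matched another number best. The alternatives were other filters, scalings, pseudocounts and thresholds, no trend, a replicate block, only the compared groups, and leaving out each library. Those for cpi-1, cpl-1 and cpz-1 were added after the data were seen.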

Additional observations from a re-analysis of the deposited data

Results flagged for a closer look

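Among cpr-1 to cpr-6, cpr-8, cpr-9, cpi-1 and cpi-2, the change by PA14 differed between the RNAi groups for 4 genes. The test was that of the difference itself (limma, labelled stt-3 RNAi minus control RNAi, adjusted over 12908 genes). In it 182 of all tested genes (1.41%) were called either way. On the log2 scale the difference was -3.1 for cpr-1, -2.23 for cpr-4, -1.82 for cpr-9 and 1.11 for cpi-1, with BH-adjusted p of 0.00477, 0.00847, 0.00842 and 0.0432. The first 3 encode cathepsin B-like proteases and cpi-1 encodes a cystatin. Of the aspartic proteases, 6 of 11 tested genes were called lower in the same test (1.18% of all tested genes). Conditions of 3 libraries are too small to single out a library by its distance from the others.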

How the results depend on the processing

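The cpr genes called by PA14 in control RNAi were cpr-3 and cpr-5 under all 22 alternatives. By PA14 in the labelled libraries 4 genes were called, and 5 with no filter, where cpr-2 was added from values at the bottom of the scale. Between the RNAi groups 1 gene was called on E. coli (4 at a limma p under 0.05 before adjustment), but 0 in the test against 2-fold (0 at a treat p under 0.05 before adjustment) and 0 with only the compared groups fitted (3 at a limma p under 0.05 before adjustment). On PA14 3 genes were called, and 1 in the test against 2-fold, while cpr-2 was added with no filter. For the difference between the PA14 responses 2 were called, and 0 in the test against 2-fold (2 at a treat p under 0.05 before adjustment). With no filter cpr-2 was added here too. Leaving out 1 library at a time gave 0 to 1 called genes on E. coli (0 without replicate 1 of labelled stt-3 RNAi), and 2 to 3 for the difference (3 without replicate 3 of labelled stt-3 RNAi on E. coli, which added cpr-5). DESeq2 was not run, since the values are not counts.

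Some changes that were not called altered their sign. The log2 fold change of cpr-9 on E. coli became 0.099 with quantile normalization. With 1 library left out at a time, that of cpr-9 on E. coli ranged from -0.25 to 0.0078, that of cpr-4 by PA14 in control RNAi ranged from -0.13 to 0.25, and the difference of cpr-3 ranged from -0.62 to 0.034. In the test against 2-fold the calls of cpr-8 and cpz-1 on E. coli and those of cpl-1 and cpz-1 on PA14 (limma treat adjusted p = 0.0949 and 0.918) were lost too. Of 1090 values for single genes under the alternatives, 1055 kept direction and call. Many of them could not change direction, since several alternatives, such as leaving out a library outside the comparison, leave the log2 fold change the same.

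With the replicate number as a block, 2 cpr genes were called by PA14 in control RNAi, 4 by PA14 in the labelled libraries, 1 between the RNAi groups on E. coli, 3 between them on PA14 and 2 for the difference, so the pairing changed no call. Depth is unknown, so the precision of low values such as those of cpr-2 could not be given.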
